A study of Mus musculus with 4 samples.

Results

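The NADPH oxidase subunits described here are 7 genes, Cyba, Cybb, Ncf1, Ncf4, Rac1, Rac2 and Nox4, taken by symbol from the 46603 Ensembl genes counted in liver RNA. All 7 had a row in the table, and all 7 passed the filter on low counts. The RNA came from the livers of 4 male mice carrying floxed alleles of HuR (HuR flox/flox, C57BL/6 J), each on a Western diet plus fructose-glucose sugar water (WDSW) for 4 weeks. The 2 mice labelled HuR hKO received the Cre recombinase by tail-vein injection of an AAV8 vector, in which the thyroxine-binding globulin promoter confines it to hepatocytes, and the 2 control mice received the same amount of an AAV8 vector with GFP behind that promoter. Control and HuR hKO mice were matched for age, which the labels do not give, and every mouse carried the floxed alleles, the virus and the diet, so no mouse on a normal diet is compared here. The question was whether the messenger RNAs of the oxidase differed between the 2 groups.

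The phagocyte NADPH oxidase moves electrons from NADPH across a membrane onto oxygen and so makes superoxide. Its membrane part is a pair of proteins, gp91phox (NOX2, from Cybb) and p22phox (from Cyba), and it works only after cytosolic proteins, among them p47phox (Ncf1) and p40phox (Ncf4), and a Rac GTPase have joined it. In the liver this enzyme is known from Kupffer cells, recruited monocytes and neutrophils. NOX4 (Nox4) also needs p22phox but no cytosolic partner, releases mostly hydrogen peroxide, and is known from hepatocytes and stellate cells. HuR, the product of Elavl1, is an RNA-binding protein that prefers AU-rich stretches of messenger RNA.

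The libraries held between 13032095 and 19715577 counts on genes, a ratio of 1.51 between the largest and the smallest, and where a gene has 0 counts its level can still be up to 0.152 to 0.23 CPM, that is counts per 1000000 counts. Levels below are CPM on library sizes scaled by TMM in edgeR, with factors of 0.957 to 1.04. Elavl1, the targeted gene, was counted 377 and 347 times in control mice 1 and 2 but 541 and 648 times in mice 3 and 4, or 28.3 and 25.9 against 37.7 and 34.4 CPM. Its log2 fold change was 0.41 (standard error, SE, 0.135, unadjusted p = 0.0160 and adjusted p = 0.545 in edgeR). It was thus not lower where the labels say that it was deleted, the cause was not tested, and every direction below is that of the label. The count is over the whole gene and does not show which exons were read. The sum of 10 hepatocyte markers lay between 74342 and 85455 CPM in the 4 libraries. Control mouse 1 stood apart in bile duct genes, with Krt19 at 12.2 CPM against 0.373 to 1.8 in the other 3 mice.

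AU-rich pentamers are shown first, because HuR is known to bind such stretches. Annotated 3′ UTRs of at least 50 bases were found for 6 of the 7 genes (Nox4 had none in the transcript chosen), and the letters ATTTA occurred 5 times in Cybb, 3 times in Ncf1 and once in Rac1. They occurred 0 times in the 102 bases of Cyba, the 189 bases of Ncf4 and the 2321 bases of Rac2. Over 11623 tested genes the median was 1 per gene and 1.24 per kilobase, and Cybb with 1.69 and Ncf1 with 2.01 per kilobase lay above it, 40.8% and 34.5% of genes having at least as high a density. The windows below come from the GENCODE M21 transcripts (GRCm38), run 5′ to 3′ and carry the pentamer in capitals. They lie on the minus strand at chrX:9437542-9437566 and chrX:9437203-9437227 (Cybb) and at chr5:134221367-134221391 (Ncf1) and chr5:143506058-143506082 (Rac1).
Cybb, base 661 of the 3′ UTR: agcactctacATTTAccatggtgtt
Cybb, base 1000 of the 3′ UTR: agaagaacacATTTAtttactgaca
Ncf1, base 369 of the 3′ UTR: aaatacagatATTTAtttctataga
Rac1, base 903 of the 3′ UTR: ttgagtccatATTTAaactggccac
In the Cybb window at base 1000 a further ATTTA overlaps the capitals and begins at base 1004. A match is a run of letters and no shown binding site. Of the 2 genes whose groups did not overlap upwards (below), Cybb has 5 such pentamers and Cyba has 0.

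None of the 7 subunit genes differed between the groups at an adjusted p-value under 0.05, from edgeR's quasi-likelihood test with Benjamini-Hochberg (BH) adjustment over 13001 genes, a threshold that 0.0231% of those genes passed. The count was also 0 by the DESeq2 Wald test, edgeR's exact test and limma-voom. At an unadjusted p-value under 0.05, 1 of the 7 passed, Cyba, which was higher in the libraries labelled HuR hKO. Over all genes tested, 7.43% passed that threshold and 4.04% passed it upwards. At a fold of at least 1.8 together with an unadjusted p-value under 0.05, 0 of the 7 passed, beside 2.12% of all genes. Both libraries labelled HuR hKO lay above both control libraries for 2 of the 7, Cyba and Cybb, as they did for 19.3% of all genes. With 7 genes, counts of 1 and 2 are too close to these shares to be a result about the oxidase. The median log2 fold change of the 7 was -0.06, beside 0.002 over all genes tested, with 3 of them fitted higher (Cyba, Cybb, Ncf4) and 4 lower (Ncf1, Rac1, Rac2, Nox4), though these 4 were fitted higher with no scaling for library size, which moved the median of all genes to 0.31. With 2 mice a group, an exact two-sided permutation test of a single gene cannot go below p = 0.333. Smaller values from edgeR rest on its model of the counts and on an estimate of the spread that borrows from other genes.

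**Figure D1:**
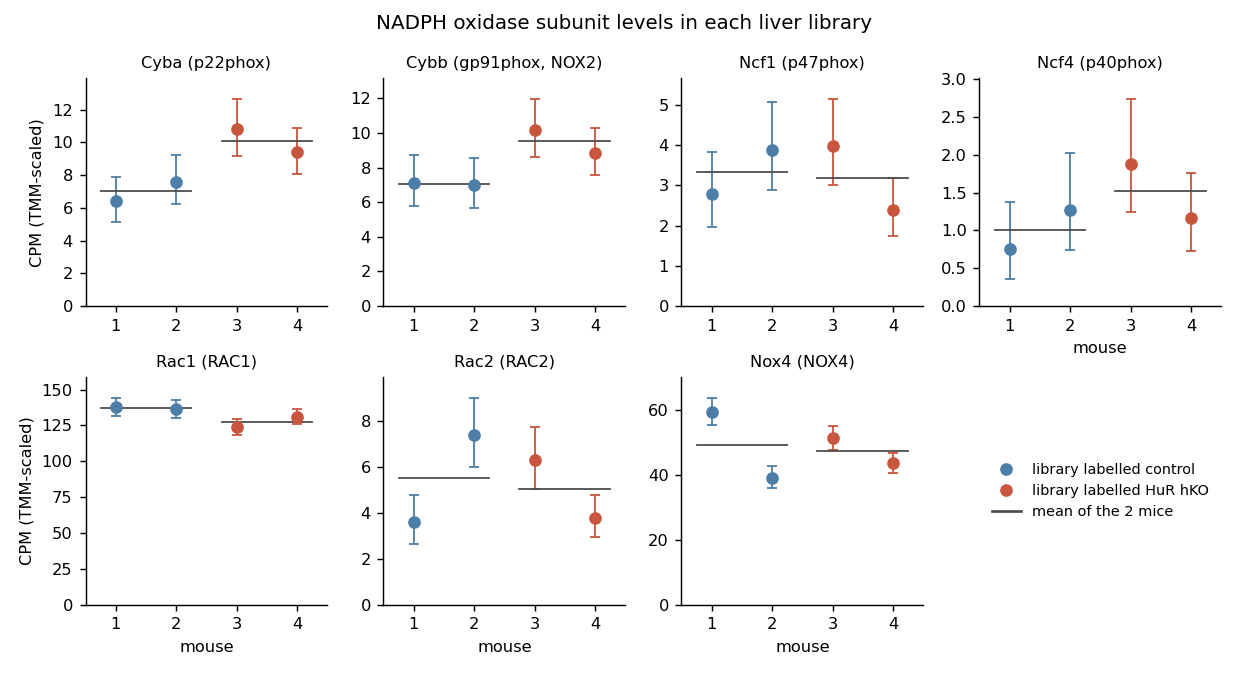
Level of each NADPH oxidase subunit gene (CPM on TMM-scaled library sizes, vertical axes from 0) in mice 1 and 2 (control) and 3 and 4 (HuR hKO), with 95% exact Poisson intervals that cover counting error only and a line at the mean of each group. Cyba and Cybb lie higher in mice 3 and 4, Rac1 lies slightly lower there, and for Ncf1, Ncf4, Rac2 and Nox4 the groups overlap.

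Cyba (ENSMUSG00000006519, chr8:122424776-122432930, minus strand) encodes p22phox, the partner that holds both NOX2 and NOX4 in the membrane. Mice 1 and 2 gave 85 and 102 counts, and mice 3 and 4 gave 155 and 177. Its level was 6.39 and 7.61 CPM in control mice 1 and 2 and 10.8 and 9.38 CPM in mice 3 and 4. Mice 3 and 4 lay above both controls, and the mice of a group differed by less than the groups did. The means were 6.997 ± 0.861 CPM (SD, n = 2) and 10.1 ± 1.00 CPM (SD, n = 2), and the log2 fold change was 0.52 (SE 0.198, 95% interval 0.07 to 0.98, BH-adjusted p = 0.591 in edgeR). The unadjusted p from that fit was 0.0286, and 4.83% of all genes tested had a p as small. The unadjusted call was lost without control mouse 1, where the log2 fold change was 0.39, and without HuR hKO mouse 3, where it was 0.41. The annotated gene on the other strand, Gm20388, overlaps the locus but shares 0 exon bases with Cyba.

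Cybb (ENSMUSG00000015340, chrX:9435252-9487771, minus strand) encodes gp91phox, the NOX2 subunit that carries the electrons. Mice 1 and 2 gave 95 and 94 counts, and mice 3 and 4 gave 146 and 167. Its level was 7.14 and 7.01 CPM in control mice 1 and 2 and 10.2 and 8.85 CPM in mice 3 and 4. The controls were nearly equal and both other libraries lay above them. The means were 7.07 ± 0.0919 CPM (SD, n = 2) and 9.51 ± 0.932 CPM (SD, n = 2). The log2 fold change was 0.42 (SE 0.19, 95% interval -0.01 to 0.86, BH-adjusted p = 0.674 in edgeR). The interval includes 0. Leaving out a mouse moved it between 0.31 and 0.52, always upwards.

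The genes with the most similar profile over the 4 libraries were sought among 11095 genes with a mean log2 CPM of at least 1, by the root mean square distance of centred log2 CPM, as a description without a test. Nearest to Cyba were Cotl1 (distance 0.02), Evi5l (0.03) and Pea15a (0.03), and 87 genes lay within 0.1. Nearest to Cybb were Leng1 (0.01), Pklr (0.01), the liver pyruvate kinase, and Junb (0.02), an AP-1 transcription factor, and 225 genes lay within 0.1. Cyba and Cybb were 0.11 apart, so that Cybb ranked 124 from Cyba and Cyba ranked 305 from Cybb. With 4 libraries many genes share a profile, and the pair of cytochrome genes were not among each other's nearest.

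Promoter sequences (250 bases before to 50 after the annotated start, RefSeq, GRCm38.p6) were found for 4 of the 7 genes, Cyba, Cybb, Ncf1 and Nox4. Those of the 2 cytochrome genes are shown, since these were the 2 genes with both libraries labelled HuR hKO on top. They lie on the minus strand at chr8:122432891-122433190 (Cyba) and chrX:9469275-9469574 (Cybb) and run 5′ to 3′.
Cyba: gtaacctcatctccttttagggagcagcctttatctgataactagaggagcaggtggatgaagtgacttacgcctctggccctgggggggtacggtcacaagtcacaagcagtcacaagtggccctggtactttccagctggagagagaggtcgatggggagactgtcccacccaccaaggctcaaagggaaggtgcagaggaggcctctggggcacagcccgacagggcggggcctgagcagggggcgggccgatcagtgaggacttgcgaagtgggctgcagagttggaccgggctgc
Cybb: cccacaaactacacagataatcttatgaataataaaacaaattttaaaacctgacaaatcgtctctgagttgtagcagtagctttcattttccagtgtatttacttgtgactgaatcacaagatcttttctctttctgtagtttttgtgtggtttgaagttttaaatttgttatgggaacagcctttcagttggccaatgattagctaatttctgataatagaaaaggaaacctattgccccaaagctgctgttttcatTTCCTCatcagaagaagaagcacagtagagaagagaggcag
The capitals in Cybb mark a PU box, searched as GAGGAA on both strands, which begins 9 bases after the start, and 28.3% of 27025 promoters hold at least one. The PU box is the motif of PU.1 (Spi1), the myeloid transcription factor. Cyba held 0 matches to it in these 300 bases, and Ncf1 and Nox4 held 0 as well. A match in this window is no shown site, and its absence says nothing of the factor.

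Ncf1 (ENSMUSG00000015950, chr5:134220053-134229625, minus strand) encodes p47phox, the organizer that carries the cytosolic proteins to the membrane once it is phosphorylated. Its level was 2.78 and 3.88 CPM in the control mice and 3.97 and 2.39 CPM in mice 3 and 4, from 37, 52, 57 and 45 counts. The groups overlapped, mouse 3 giving the highest and mouse 4 the lowest value. The log2 fold change was -0.08 (SE 0.35, 95% interval -0.89 to 0.72, BH-adjusted p = 0.972 in edgeR). Its exons share 408 bases with Gtf2ird2 on the opposite strand, and without stated use of strand those reads cannot be told apart.

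Ncf4 (ENSMUSG00000071715, chr15:78244801-78262580, plus strand) encodes p40phox, which binds phosphoinositides on phagosomes. It was the least counted of the 7, with 10, 17, 27 and 22 counts in mice 1 to 4, or 0.752, 1.27, 1.88 and 1.17 CPM. Mouse 3 was the highest, and control mouse 2 lay above HuR hKO mouse 4, so the groups overlapped. The log2 fold change was 0.57 (SE 0.486, 95% interval -0.55 to 1.69, BH-adjusted p = 0.838 in edgeR). The interval holds both 0 and the fitted value of Cyba. Without HuR hKO mouse 3 the value was 0.19, and without control mouse 2 it was 0.99.

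Rac1 and Rac2 are the GTPases that complete the enzyme, Rac1 in nearly all cells and Rac2 in blood cells. Their coding sequences of 576 bases are 77.1% identical, with 132 differing bases, and their longest common run is 29 bases at the start of the coding sequence.

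Rac1 (ENSMUSG00000001847, chr5:143503634-143528036, minus strand) had 137.8 and 136.4 CPM in the control mice and 123.8 and 131.2 CPM in mice 3 and 4. Both libraries labelled HuR hKO lay below both controls, by little, and the share of all genes that separated downwards was not counted. The means were 137.1 ± 0.966 CPM (SD, n = 2) and 127.5 ± 5.24 CPM (SD, n = 2), and the log2 fold change was -0.10 (SE 0.124, 95% interval -0.39 to 0.18, BH-adjusted p = 0.885 in edgeR). Rac1 was the most precisely measured of the 7, and its interval leaves out any rise as large as the fitted value of Cyba or Cybb. With no scaling for library size the sign turned, to 0.22. Its exons share 2309 bases with Daglb on the opposite strand, which had 323 to 527 counts.

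Rac2 (ENSMUSG00000033220, chr15:78559167-78572783, minus strand) had 3.61 and 7.38 CPM in the control mice and 6.27 and 3.77 CPM in mice 3 and 4. The controls differed 2.05-fold from each other and enclosed both other libraries. The log2 fold change was -0.15 (SE 0.38, 95% interval -1.02 to 0.73, BH-adjusted p = 0.959 in edgeR). It was -0.58 without control mouse 1 and 0.46 without control mouse 2.

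Nox4 (ENSMUSG00000030562, chr7:87246096-87398710, plus strand) encodes the constitutive oxidase. Its level was 59.4 and 39.1 CPM in the control mice and 51.2 and 43.6 CPM in mice 3 and 4, from 790, 524, 735 and 822 counts. The control mice again enclosed both others, and the mice of the control group differed 1.52-fold. The means were 49.2 ± 14.4 CPM (SD, n = 2) and 47.4 ± 5.39 CPM (SD, n = 2), with a log2 fold change of -0.06 (SE 0.202, 95% interval -0.52 to 0.41, BH-adjusted p = 0.970 in edgeR). The value was 0.26 without control mouse 1 and -0.32 without control mouse 2.

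**Figure D2:**
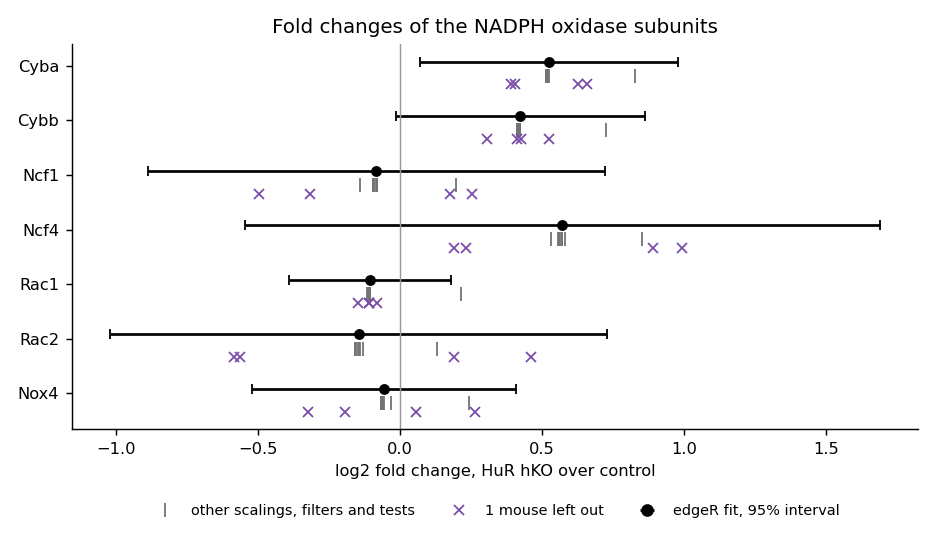
Log2 fold change of each subunit gene (horizontal axis, HuR hKO over control) with its 95% interval from edgeR, ticks for 8 other scalings, filters and tests, and crosses for the 4 fits that leave out a mouse. Cyba, Cybb and Ncf4 stay above 0 in all of them, while Ncf1, Rac2 and Nox4 change sign when 1 mouse is left out and, like Rac1, with no scaling for library size.

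Levels between genes were compared per length, as reads per kilobase of joined exons and 1000000 counts (RPKM) on the TMM-scaled sizes. Rac1 was highest, with a mean of 29.4 RPKM over the 4 libraries and a range of 27.5 to 30.6. Cyba followed with 8.22 (6.15 to 10.4) and Nox4 with 5.70 (4.61 to 7.01), and these 2 neighbours overlapped. Rac2 with 1.69 (1.16 to 2.38) and Cybb with 1.43 (1.21 to 1.75) overlapped too. Ncf1 with 0.888 (0.651 to 1.08) and Ncf4 with 0.627 (0.372 to 0.931) were the lowest and overlapped. The order thus fell into Rac1, then Cyba and Nox4, then Rac2 and Cybb, then the phox proteins Ncf1 and Ncf4, and neighbours in different steps did not overlap over the 4 libraries. The RNA of p22phox, which serves both oxidases, lay above that of either of its partners on average, NOX4 and NOX2. Against NOX4 this order depends on the lengths used, joined exons of 1039 bases for Cyba and 8471 bases for Nox4. Before division by length the means were 8.54 CPM for Cyba and 48.3 CPM for Nox4. The joined exons include all annotated transcripts, so a gene with long rare exons gets a lower RPKM than its used transcript has.

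**Figure D3:**
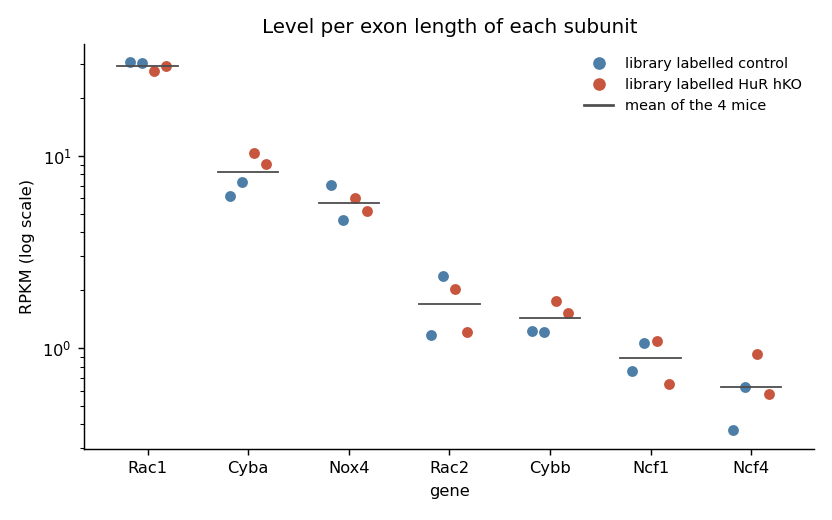
Level of each subunit gene per exon length (RPKM, log scale) in the 4 libraries, ordered by the mean, with the mean of the 4 mice as a line. Rac1 stands at 29.4 RPKM on average and Ncf4 at 0.627, and within the pairs Cyba and Nox4, Rac2 and Cybb, and Ncf1 and Ncf4 the points overlap.

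Cybb, Ncf1, Ncf4 and Rac2 are known mainly from leukocytes, so their levels are set beside cell markers. In bulk liver RNA, fewer or more cells of a type and less or more RNA per cell cannot be told apart. The 4 genes summed to 14.3 and 19.5 CPM in the control mice and 22.3 and 16.2 CPM in mice 3 and 4, with overlapping groups. The 8 pan-leukocyte markers, led by Lcp1, summed to 126.4 and 124.6 against 141.7 and 118.7 CPM, which also overlapped, with 6 fitted higher, 2 lower and 0 past an unadjusted p-value under 0.05. Cybb amounted to 5.65% and 5.63% of that sum in the control mice and to 7.18% and 7.46% in mice 3 and 4. Cyba amounted to 5.05% and 6.10% against 7.62% and 7.91%. Both ratios were higher in both libraries labelled HuR hKO. The 4 leukocyte genes together amounted to 11.3% and 15.7% of the sum in the control mice and to 15.7% and 13.6% in mice 3 and 4, with mouse 4 between the controls. With Lcp1 left out of the sum their share was 32.8% and 37.4% against 39.6% and 33.7%, which overlapped.

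The sums of the macrophage markers were higher where Cyba and Cybb were. The 12 Kupffer cell markers summed to 267.8 and 268.8 CPM in the control mice and to 300.4 and 289.3 CPM in mice 3 and 4, with 9 fitted higher, 3 lower and 0 past an unadjusted p-value under 0.05. Their most abundant gene, Clec4f, a receptor specific to Kupffer cells, had a log2 fold change of 0.27 (SE 0.131). The 3 fitted lower were Marco (-0.92, SE 0.467), Adgre1 (-0.20, SE 0.228) and Csf1r (-0.009, SE 0.129), so the markers did not all move with their sum. Of 11 markers of monocytes and monocyte-derived macrophages, 8 were tested and 7 of these were fitted higher, and the sum was 66.6 and 65.7 CPM in the control mice and 89.0 and 87.4 CPM in mice 3 and 4. Both sums separated the groups, upwards. The sum of 8 endothelial markers did so too, at 199.4 and 173.2 against 229.1 and 205.7 CPM. So did that of 9 stellate cell and fibroblast markers, at 230.9 and 214.4 against 234.1 and 290.6 CPM. The sums of the pan-leukocyte, neutrophil, T, NK and B cell, cholangiocyte and hepatocyte markers overlapped between the groups. Of all single genes tested, 19.3% separated upwards. Of the monocyte and monocyte-derived macrophage markers, 2 passed an unadjusted p-value under 0.05. Spp1, osteopontin, also made by bile duct cells, had a log2 fold change of 0.51 (unadjusted p = 0.0257 and BH-adjusted p = 0.579 in edgeR). Trem2, a receptor of lipid-associated macrophages, had 4 and 2 counts in the control libraries against 12 and 15 (log2 fold change 1.82, BH-adjusted p = 0.574 in edgeR). The part of macrophage number in the Cyba and Cybb values was not tested, and the ratios to marker sums depended on the list. Relative to the Kupffer cell sum, Cybb was at 2.67% and 2.61% in the control mice and at 3.39% and 3.06% in mice 3 and 4. Relative to the sum of the monocyte and monocyte-derived macrophage markers, Cybb was at 10.7% and 10.7% in the control mice and at 11.4% and 10.1% in mice 3 and 4, and Cyba was at 9.59% and 11.6% against 12.1% and 10.7%. On that scale the groups overlapped for both genes. Spp1 alone gave 31.5 and 22.3 CPM of that sum in the control mice and 34.8 and 41.8 CPM in mice 3 and 4. Shares with Spp1 left out of the sum were not computed.

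Neutrophils are the cells best known for this oxidase, and their defining markers were at or near 0 in every library. Ly6g and Camp had 0 counts in all 4, which allows up to 0.152 to 0.23 CPM. S100a8, a calprotectin subunit abundant in neutrophils, had 1, 1, 3 and 5 counts in mice 1 to 4. The whole list of 13 neutrophil markers summed to 2.56 and 3.95 CPM in the control mice and to 2.93 and 1.96 CPM in mice 3 and 4, less than Cybb by itself in each library. Only Csf3r, the G-CSF receptor, passed the filter, with 20, 22, 12 and 20 counts and a log2 fold change of -0.71 (SE 0.425, BH-adjusted p = 0.749 in edgeR). The markers of T, NK and B cells, led by Cd79b, summed to 4.43 and 9.99 against 8.36 and 8.43 CPM, and of the 5 tested of 11, 3 fitted higher, 2 lower and 0 passed an unadjusted p-value under 0.05.

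**Figure D4:**
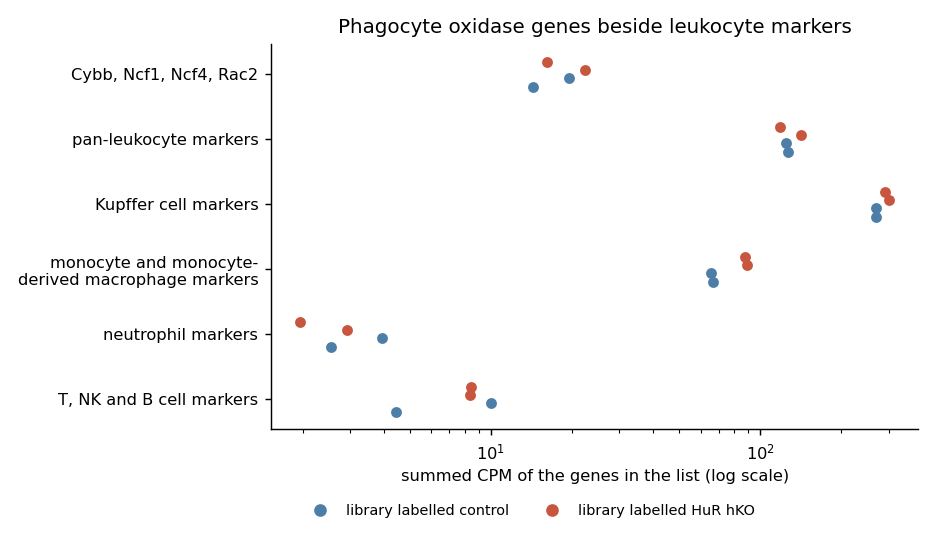
Summed CPM (log scale) of the leukocyte-restricted subunit genes and of 5 lists of leukocyte markers in the 4 libraries. Kupffer cell and monocyte-derived macrophage sums lie higher in both libraries labelled HuR hKO, the neutrophil sum lies under 4 CPM throughout, and the sum of Cybb, Ncf1, Ncf4 and Rac2 overlaps between the groups.

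The other genes of the pathway came from lists written for this comparison. Of 11 other genes of the oxidase family, 3 passed the filter, 1 fitted higher and 2 lower, and 0 passed an unadjusted p-value under 0.05. The most abundant, Cybc1, a chaperone of the membrane cytochrome, had 8.04 and 8.50 CPM in the control mice and 7.53 and 7.90 CPM in mice 3 and 4 (log2 fold change -0.10, SE 0.187). Thus the chaperone did not lie higher where Cyba and Cybb did. Nox3, an oxidase of the inner ear, had 0 counts in every library, and Nox1, an oxidase of the colon, had 1 to 3.

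Of 17 regulators of assembly and of Rac, 15 were tested, with 10 fitted higher, 5 lower and 1 past an unadjusted p-value under 0.05. That gene was Prkcb, the protein kinase C beta that phosphorylates p47phox, at 0.601 and 0.820 CPM in the control mice and 1.88 and 1.38 CPM in mice 3 and 4. Both libraries labelled HuR hKO lay above both controls, from 8 and 11 against 27 and 26 counts. The log2 fold change was 1.18 (SE 0.469, BH-adjusted p = 0.625 in edgeR). Rap1a, the small GTPase found bound to the cytochrome and the most abundant of the list, was at 0.04 (SE 0.122).

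Among 8 transcription factors of the phagocyte oxidase genes, 2 fitted higher and 6 lower. Spi1, which encodes PU.1 and was named after its values were seen, had 5.49 and 4.85 CPM in the control mice and 6.90 and 5.67 CPM in mice 3 and 4. Mice 3 and 4 lay above both controls, mouse 4 by little. The log2 fold change was 0.28 (SE 0.229, unadjusted p = 0.260 in edgeR).

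The 7 enzymes that supply NADPH gave 4 fitted higher and 3 lower. Pgd, the second dehydrogenase of the pentose phosphate pathway, passed an unadjusted p-value under 0.05, with 39.7 and 49.8 CPM in the control mice and 62.1 and 63.5 CPM in mice 3 and 4. Its log2 fold change was 0.49 (SE 0.147, BH-adjusted p = 0.490 in edgeR), while the most abundant gene of the list, Idh1, cytosolic isocitrate dehydrogenase, was at 0.12 (SE 0.137). Of 19 genes that remove superoxide and hydrogen peroxide, 14 fitted higher and 5 lower, and 0 passed an unadjusted p-value under 0.05. Cat, catalase, was the most abundant, with 2719 and 2604 CPM in the control mice and 2101 and 2317 CPM in mice 3 and 4 (log2 fold change -0.27, SE 0.164).

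Among the markers of cells that can carry NOX4, 8 endothelial markers, led by Clec4g, all fitted higher with 0 past an unadjusted p-value under 0.05. Of 9 stellate cell and fibroblast markers, led by Dcn, 7 fitted higher, and 2 passed. These were Col1a1 (log2 fold change 0.63, BH-adjusted p = 0.580 in edgeR) and Col3a1 (0.59, adjusted p = 0.522 from the same test), the main fibrillar collagens. For Nox4 itself the groups overlapped. Of 7 cholangiocyte markers, 5 were tested and Spp1 passed the unadjusted threshold, and of 10 hepatocyte markers, led by Alb, 5 fitted higher, 5 lower and 0 passed. Over the 117 tested genes of all these lists, 6 passed an unadjusted p-value under 0.05 upwards, and 0 passed an adjusted p-value under 0.05.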

How the data were processed

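Liver RNA of 4 mice was sequenced, and the authors deposited estimated counts per Ensembl gene as whole numbers without normalization. The submitters' processing notes name RSEM and GRCm38 without roles or versions. The aligner, the annotation and use of strand are not given in the sources used here, and whether estimates were rounded cannot be seen in the table. The 4 columns carry the mouse numbers of the labels. Symbols were found for 46005 identifiers, and coordinates and exons come from GENCODE M21.

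Counts were normalized with TMM in edgeR 4.0.16 (R 4.3.3), filtered with filterByExpr and compared with the quasi-likelihood test over 13001 genes. The study's threshold, a fold of 1.8 with an unadjusted p-value under 0.05, was counted as well. Poisson intervals and limits at a count of 0 (3 counts) cover counting error only. Alternatives used DESeq2 1.42.0 and limma 3.58.1 (voom), and the tests were tested on simulated data. Tables and figures were made with python 3.11.15, pandas 2.3.3, numpy 2.4.6, scipy 1.17.1 and matplotlib 3.10.9.

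The subunit genes and all lists were chosen with earlier results of these data known. Named genes are the 7 subunits, Elavl1, the genes of each list with an unadjusted p-value under 0.05 or the highest mean CPM, and the 3 nearest profiles to Cyba and Cybb. Spi1, other genes without a call named as markers at or near 0, and Krt19 were chosen after their values were seen. The Kupffer cell markers fitted lower were named after their values were seen too. Some genes and sequences that this rule covers are not reported here.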

Additional observations from a re-analysis of the deposited data

How the results depend on the processing

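The counts of calls, the median and the fold change of each subunit gene were computed under 12 alternatives (marker sums and ratios, levels per length and nearest profiles were not), of which 4 leave out a mouse and assume that the lone mouse of a group varies like the others. The count of subunit genes with an adjusted p-value under 0.05 stayed at 0 in all 12, as did the count past a fold of 1.8. Cyba, Cybb and Ncf4 were higher in all 12, with log2 fold changes of 0.39 to 0.83, 0.31 to 0.73 and 0.19 to 0.99. The upper ends for Cyba and Cybb came with no scaling for library size, and with a mouse left out they reached 0.66 and 0.52. The smallest adjusted p-value over the alternatives was 0.199, for Cyba in edgeR's quasi-likelihood test with no scaling for library size.

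The count with an unadjusted p-value under 0.05 was 2 with no scaling for library size, 0 with the DESeq2 Wald test, and 0 to 1 with a mouse left out (0 without control mouse 1 or HuR hKO mouse 3). The median log2 fold change of the 7 was 0.24 with no scaling and -0.080 to 0.41 with a mouse left out. With no scaling, where the median of all genes moved to 0.31, the sign turned for Ncf1 (0.20), Rac1 (0.22), Rac2 (0.13) and Nox4 (0.24). With a mouse left out it also turned for Ncf1 (-0.50 to 0.25), Rac2 (-0.58 to 0.46) and Nox4 (-0.32 to 0.26).

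For the other lists, the adjusted count was 2 with no scaling and 0 to 1 with a mouse left out (Krt19, without control mouse 2). The unadjusted count of 7 became 22 with no scaling, 16 with no filter and 3 to 21 with a mouse left out. It was 21 without control mouse 2 and 3 without HuR hKO mouse 4. The count past a fold of 1.8, 2 as reported, became 8 with no scaling, 6 with no filter, 0 with at least 10 counts in every library (Prkcb and Trem2 then fail the filter), 1 with the DESeq2 Wald test and 1 to 9 with a mouse left out. It was 9 without control mouse 2 and 1 without HuR hKO mouse 3.

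Over all genes, 3 passed the adjusted threshold as reported, 155 with no scaling, 161 with no filter, 120 with edgeR's exact test, 77 with the DESeq2 Wald test, and 0 to 73 with a mouse left out. The causes of these moves were not tested. No paired analysis was possible because the groups share no mouse number. Ncf4 rests on 10 to 27 counts a library.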

Other observations

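Among the genes of the dual oxidases, which epithelia use, Duox2 had 13 counts in control mouse 1 and 0 in the other 3 mice, and its maturation factor Duoxa2 had 5 counts there and 0 to 1 elsewhere. Duoxa1 had 2 counts in mouse 3 and 0 in the others, and Duox1 had 2 in control mouse 1 and 0 in the others. In control mouse 1 Krt19 had 162 counts against 5 to 34, Krt7 had 35 against 8 to 13, and Cftr had 4 against 0. These genes were named after their values were seen.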
